A study of Mus musculus with 12 samples.

Results

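The HOX cluster genes of the mouse are the protein-coding genes whose symbol is Hoxa, Hoxb, Hoxc or Hoxd followed by a number. There are 39 of them, among 56262 gene identifiers in the table of lung libraries and 54532 in the table of AT2 libraries, and all 39 were listed in both tables. In GENCODE M21 (build GRCm38) the 11 Hoxa genes lie on chromosome 6 between 52155590 and 52260880, on the minus strand. The 10 Hoxb genes lie on chromosome 11 between 96194316 and 96368256, the 9 Hoxc genes on chromosome 15 between 102921103 and 103036852, and the 9 Hoxd genes on chromosome 2 between 74668310 and 74765142, all on the plus strand. The number in a gene's name, from 1 to 13, gives its position in the cluster, and genes of the same number in different clusters are paralogues.

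All knockout mice here were C57BL/6 animals lacking Med23, which codes for part of Mediator, the bridge between transcription factors and RNA polymerase II, in their T cells. The first group is lung tumour tissue of 3 knockout mice aged 18 months (mice 102, 217 and 224), and the second is normal lung tissue next to the tumour in the same 3 mice, so that both carried the deletion and the comparison holds no wild-type lung. The third group is alveolar type 2 (AT2) cells, the surfactant-making cells of the alveolus, sorted by flow cytometry from 3 knockout mice aged 6 months (175, 179 and 191), and the fourth is AT2 cells sorted from 3 wild-type mice of that age (176, 177 and 190). The tumours were spontaneous, and the study asked what kind of tumour they were and what AT2 cells were like before tumours formed. What drove the T-cell deletion, and the sex of the mice, are not stated in the labels. Whole lung and tumour hold many cell types, and fewer cells of a type cannot be told apart from less RNA per cell in such samples.

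HOX proteins are transcription factors with a homeodomain, the fold that binds short A- and T-rich sites. Within a cluster the genes are opened in order during development, low numbers first and towards the head, high numbers last and towards the tail, and adult tissues keep part of the code that was set at their level of the body axis. In the lung the genes of low and middle numbers are known from the mesenchyme, the connective tissue cells, where Hoxa5 and its paralogues Hoxb5 and Hoxc5 act in airway branching and alveolar growth. PBX, MEIS and PKNOX proteins bind DNA beside HOX proteins, retinoic acid induces genes at the low-numbered ends of the clusters, and Polycomb and MLL complexes keep the clusters silent or active.

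The promoters of 3 members are shown because they stand for the main patterns found. Hoxa5 had the highest level of all members per length and was lower in tumours, Hoxb4 came next and was also lower, and Hoxb8 was expressed at about 1 CPM with no difference that passed the test. Each stretch runs from 250 bases before to 50 bases after a gene's start, 5′ to 3′ on the gene's own strand (RefSeq, GRCm38.p6), at chr6:52204538-52204837 (minus strand) for Hoxa5, chr11:96318017-96318316 (plus strand) for Hoxb4 and chr11:96281655-96281954 (plus strand) for Hoxb8. Capitals mark TAAT on either strand, the core that homeodomains bind.

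Hoxa5: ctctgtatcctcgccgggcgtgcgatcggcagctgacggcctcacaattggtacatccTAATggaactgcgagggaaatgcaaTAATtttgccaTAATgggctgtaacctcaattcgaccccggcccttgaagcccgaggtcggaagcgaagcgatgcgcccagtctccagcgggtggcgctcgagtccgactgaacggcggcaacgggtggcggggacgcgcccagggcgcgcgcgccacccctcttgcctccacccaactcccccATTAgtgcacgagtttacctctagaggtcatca

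Hoxb4: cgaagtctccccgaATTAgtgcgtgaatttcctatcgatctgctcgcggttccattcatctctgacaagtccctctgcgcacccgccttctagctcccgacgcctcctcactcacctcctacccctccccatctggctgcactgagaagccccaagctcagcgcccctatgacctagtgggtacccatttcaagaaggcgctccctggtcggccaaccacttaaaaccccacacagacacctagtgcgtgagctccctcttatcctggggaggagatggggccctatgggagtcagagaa

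Hoxb8: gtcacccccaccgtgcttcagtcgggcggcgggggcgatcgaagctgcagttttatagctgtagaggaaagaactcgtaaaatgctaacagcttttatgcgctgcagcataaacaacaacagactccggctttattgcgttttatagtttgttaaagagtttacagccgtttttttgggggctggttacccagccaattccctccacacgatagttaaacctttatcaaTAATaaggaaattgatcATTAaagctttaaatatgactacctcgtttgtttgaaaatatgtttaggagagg

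The Hoxa5 stretch held TAAT 4 times, the Hoxb4 stretch once and the Hoxb8 stretch 2 times, counted on both strands. RefSeq promoters were at hand for 22 of the 39 members (24 promoters), and 19 of the 24 (79.2%) held TAAT, against 58% of all 32851 promoters of the same length. The PBX-HOX composite TGATNNAT was in 4 of 24 (16.7%) and in 8.85% of all promoters, and Hoxb8 held it. The CDX core TTTATG was in 5 of 24 (20.8%) and in 11.9% of all promoters, and Hoxb8 held it 2 times. TAATTA, which contains TAAT, was in 2 of 24 (8.33%) and in 5.29% of all, and the DR5 element of retinoic acid receptors, a direct repeat of AGGTCA with 5 bases between the copies, was in 0 of 24 and in 0.00913% of all. The HOX promoters had a median GC content of 57.7%, against 52.7% over all promoters, and a median ratio of observed to expected CpG of 0.626, against 0.384. These matches describe letters in a window and were not measured as binding.

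In the lung libraries 27 of the 39 members had at least 1 count and 12 had 0 counts in all 6. Levels are given as CPM, reads scaled to library size after TMM normalisation. A mean of at least 1 CPM was reached by 9 members in tumours and by 12 in adjacent lung. Most of the HOX RNA came from the low- and middle-numbered genes of the Hoxa and Hoxb clusters. The 23 members at positions 1 to 8 held 6362 counts in the 3 tumours and 30567 in the 3 adjacent libraries, and the 16 members at positions 9 to 13 held 53 counts in the tumours and 122 in the adjacent libraries.

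**Figure D1:**
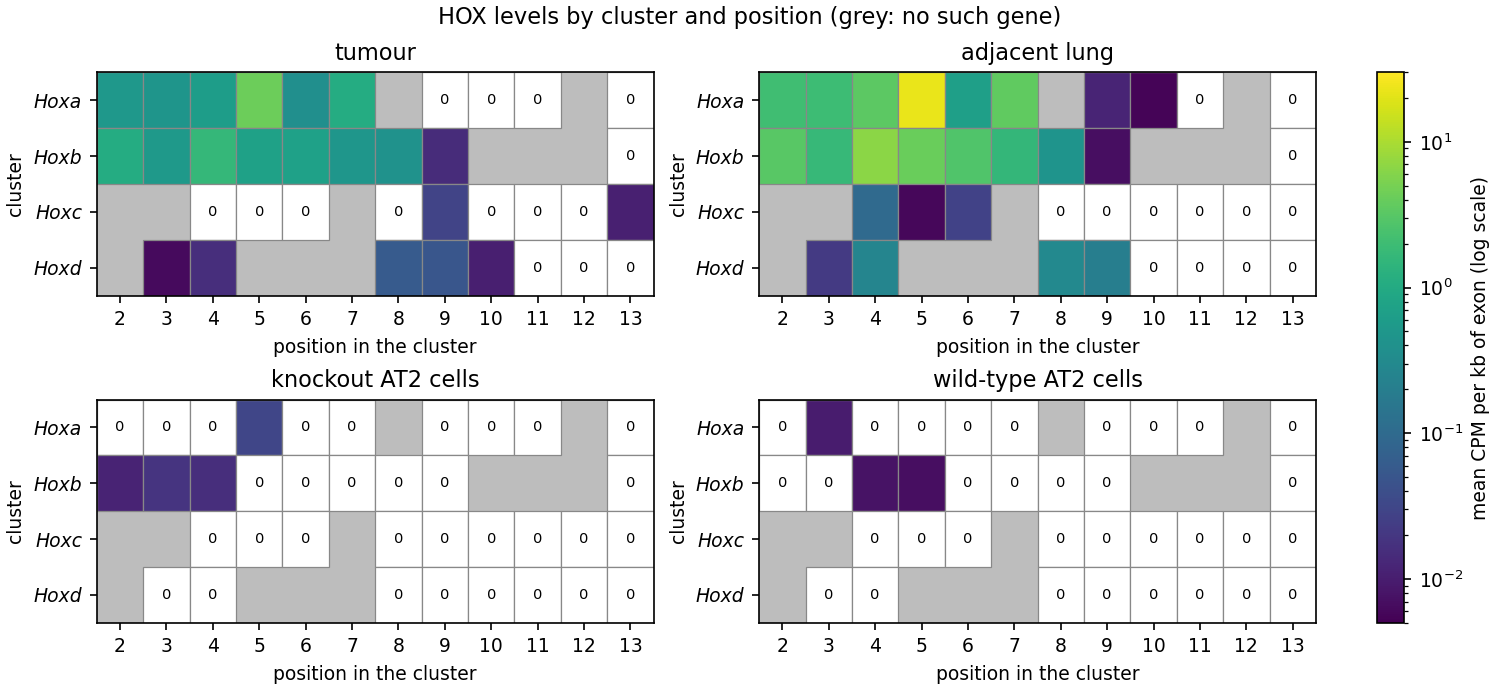
Mean CPM per kb of merged exon length (colour, log scale) of each HOX gene at positions 2 to 13 (horizontal axis), by cluster (vertical axis), in tumours, adjacent lung, knockout AT2 cells and wild-type AT2 cells (3 libraries each); white cells marked 0 had 0 counts in the group, and grey cells have no gene. Most signal in both lung groups lies in Hoxa and Hoxb at positions 2 to 8, with Hoxa5 highest at 4.23 CPM per kb in tumours and 22.6 in adjacent lung, while the AT2 panels are nearly all at 0.

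All 39 members together summed to 27.9, 40.3 and 27.9 CPM in tumours 102, 217 and 224, against 150.5, 132.9 and 116.2 CPM in the adjacent lung of the same mice. Every tumour lay below every adjacent library, and the tumour mean was 24.1% of the adjacent mean (32.1 ± 7.18 CPM in tumours and 133 ± 17.2 CPM in adjacent lung, SD, n = 3 each). The Hoxa genes summed to 16.05 ± 3.38 CPM in tumours and 75.1 ± 9.52 CPM in adjacent lung, the Hoxb genes to 15.6 ± 3.58 CPM in tumours and 55.7 ± 11.5 CPM in adjacent lung, and the Hoxd genes to 0.364 ± 0.151 CPM in tumours and 2.12 ± 1.11 CPM in adjacent lung. The Hoxc genes reached no more than 0.286 CPM in any tumour and 0.602 CPM in any adjacent library. These sums are descriptions, without a test.

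Of the 39 members, 17 passed the filter on low counts and were tested. Tumour was compared with adjacent lung with edgeR's quasi-likelihood test, with p-values adjusted by Benjamini-Hochberg over all 19995 genes tested and a threshold of 0.05. Hoxa3, Hoxa4, Hoxa5, Hoxb4 and Hoxb5 were lower in tumours, none was higher, and 12 did not pass. Among all genes tested, 7.18% passed as lower and 2.86% as higher. At an unadjusted p under 0.05, 14 of the 17 were lower, against 16% of all genes. In 15 of the 17, all 3 tumours lay below all 3 adjacent libraries, against 18.9% of all genes. All 17 fitted log2 fold changes (tumour over adjacent) were negative in this fit, with Hoxb8 alone changing sign in 3 of the alternatives, and with a median of -1.99, against 0.04 for all genes. The filter shaped this group: in 12 of the 17 every library of both groups was past the filter's level of 0.136 CPM, whereas all 3 adjacent libraries but not all 3 tumours were past it for the other 5, Hoxa6, Hoxd4, Hoxd8 and Hoxd9 among them. The direction of these 5 is in part fixed by the filter.

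**Figure D2:**
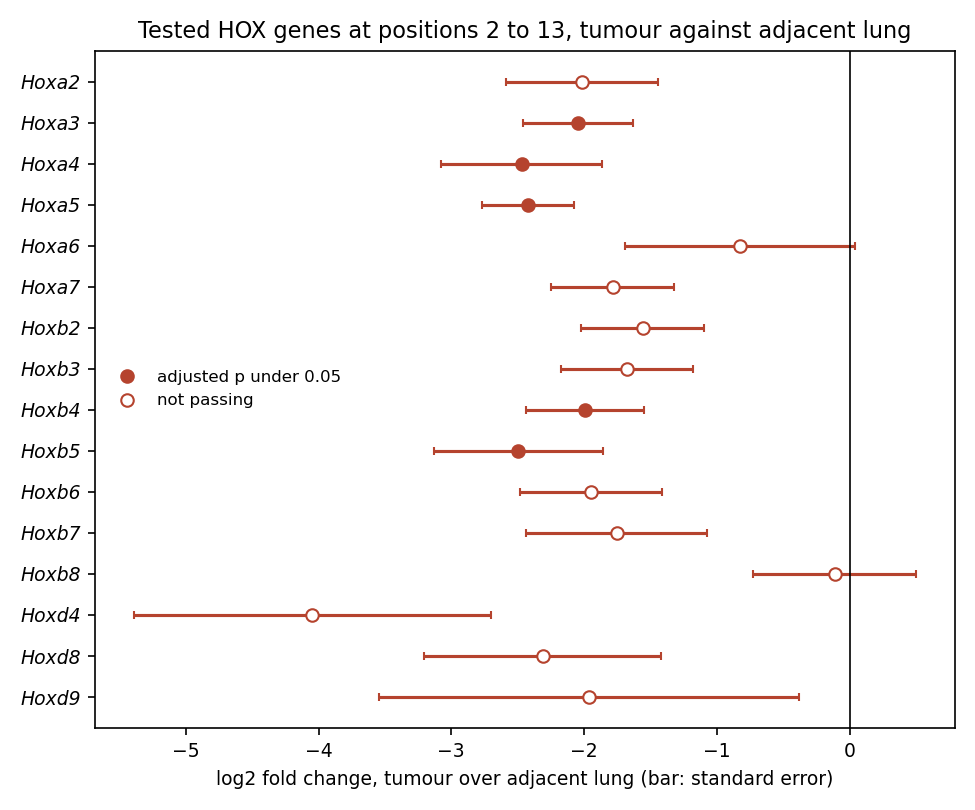
Log2 fold change of the 16 tested HOX genes at positions 2 to 13 (vertical axis) in tumour over adjacent lung, from edgeR (horizontal axis), with the standard error as a bar; filled points passed an adjusted p of 0.05. All 16 points lie left of 0, from Hoxd4 at -4.05 to Hoxb8 at -0.11, and the 5 filled ones are Hoxa3, Hoxa4, Hoxa5, Hoxb4 and Hoxb5.

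Among the paralogues at position 5, Hoxa5, which mice need for normal tracheal and lung development, measured 6.56, 10.9 and 6.31 CPM in tumours 102, 217 and 224, against 48.6, 40.4 and 38.5 CPM in adjacent lung. Tumour 217 was highest of the tumours, and the groups were far from overlapping. The log2 fold change was -2.42 ± 0.35 (adjusted p = 0.0101, edgeR), a 5.36-fold difference of the means that ranged between 3.70-fold in mouse 217 and 7.40-fold in mouse 102. Its paralogue Hoxb5, which acts with Hoxa5 in lung mesenchyme, measured 1.36, 3.28 and 1.37 CPM in tumours, against 19.7, 7.99 and 6.21 CPM in adjacent lung. The adjacent library of mouse 102 stood well above the others, and the groups did not overlap. The log2 fold change was -2.49 ± 0.63 (adjusted p = 0.0472, edgeR), and the difference ranged between 2.44-fold in mouse 217 and 14.4-fold in mouse 102. It was -1.80 without the adjacent library of mouse 102 (adjusted p = 0.157), -3.10 without tumour 217 (adjusted p = 0.0326) and -3.29 without both libraries of mouse 217 (adjusted p = 0.0641). Hoxc5, the last gene of the trio, had 0 counts in tumours and 4 counts in adjacent lung, all in mouse 224, and was not tested.

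At position 4, Hoxb4, known for its role in blood stem cells and the hindbrain, measured 3.68, 6.30 and 2.87 CPM in tumours, against 18.6, 20.4 and 12.2 CPM in adjacent lung, with no overlap (log2 fold change -1.99 ± 0.44, adjusted p = 0.0320, edgeR). Hoxa4, which patterns neck vertebrae, measured 0.668, 1.70 and 0.510 CPM in tumours, against 5.39, 4.90 and 5.69 CPM in adjacent lung. The adjacent libraries were close to each other while tumour 217 was the highest tumour, and the log2 fold change was -2.47 ± 0.61 (adjusted p = 0.0423, edgeR). It was -3.24 without tumour 217 (adjusted p = 0.0185) and -3.29 without both libraries of that mouse (adjusted p = 0.0523). Hoxd4 measured 0, 0.0637 and 0.0729 CPM in tumours, against 0.150, 0.789 and 1.38 CPM in adjacent lung. It did not pass (log2 fold change -4.05 ± 1.34, adjusted p = 0.106, edgeR), and 52.3% of its exon length is shared with other genes of its strand, Hoxd3 among them, so that its counts are uncertain. Hoxc4 had 0 counts in tumours and 56 in adjacent lung, 36 in mouse 217 and 20 in mouse 224, at least 16.8-fold lower in tumours against a floor of 3 counts over the group, with no test.

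At positions 2 and 3, Hoxa3, which shapes the thymus and parathyroid glands, measured 2.29, 2.74 and 3.43 CPM in tumours, against 10.8, 9.07 and 15.0 CPM in adjacent lung. Mouse 224 was highest in both tissues, and the groups did not overlap (log2 fold change -2.05 ± 0.41, adjusted p = 0.0242, edgeR). Hoxb3, its paralogue, measured 2.19, 1.42 and 3.16 CPM in tumours, against 5.24, 6.88 and 9.55 CPM in adjacent lung (adjusted p = 0.0768, edgeR). Hoxa2, which gives the second pharyngeal arch its identity, measured 0.867, 1.42 and 0.496 CPM in tumours, against 4.28, 3.47 and 3.498 CPM in adjacent lung (adjusted p = 0.0682, edgeR). Hoxb2, a hindbrain gene, measured 2.76, 4.62 and 3.83 CPM in tumours, against 10.1, 15.99 and 6.92 CPM in adjacent lung (adjusted p = 0.0768, edgeR). In these 3 genes every tumour lay below every adjacent library although the test was not passed. The strand setting of the counting is not stated, and part of the exon length overlaps antisense transcripts (25.4% in Hoxa3, 27.3% in Hoxb2, 52.9% in Hoxb3, 15.998% in Hoxa4 and 20.4% in Hoxa7), so reads there may come from either gene. On the same strand, 15.0% of the exon length of Hoxa2 and 8.01% of that of Hoxa3 is shared with Gm28308. Hoxa5, Hoxb4, Hoxb6, Hoxb7 and Hoxb8 overlap no other gene's exons, and 3.59% of Hoxb5 does.

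At positions 6 to 8, Hoxa7, which patterns the trunk, measured 2.78, 2.90 and 3.35 CPM in tumours, against 15.2, 9.90 and 6.00 CPM in adjacent lung. The tumours were close to each other and the adjacent libraries spread widely, and the gene lay just short of the threshold (log2 fold change -1.78 ± 0.46, adjusted p = 0.0505, edgeR). Hoxb6 measured 1.42, 2.04 and 0.743 CPM in tumours, against 6.02, 5.54 and 4.66 CPM in adjacent lung (adjusted p = 0.0598, edgeR). Hoxb7, whose promoter is active in the ureteric bud, measured 1.04, 0.923 and 0.248 CPM in tumours, against 2.98, 2.52 and 1.97 CPM in adjacent lung (adjusted p = 0.166, edgeR). Hoxb6 and Hoxb7 had no overlap between groups, and tumour 224 was the lowest library for both.

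Hoxb8, a gene of blood cell precursors and microglia, measured 1.19, 1.10 and 1.01 CPM in tumours, against 0.789, 1.87 and 0.905 CPM in adjacent lung. The groups overlapped, and the log2 fold change was -0.11 ± 0.61 (adjusted p = 0.948, edgeR) and turned positive with limma-voom and without the adjacent library or both libraries of mouse 217; a p that misses the threshold does not show that the level was equal. Its fold change was not tested against those of the other members. Hoxa6, the other member whose groups overlapped, measured 0.426, 0.127 and 0.408 CPM in tumours, against 1.002, 0.442 and 0.266 CPM in adjacent lung (adjusted p = 0.654, edgeR). Hoxd8 measured 0.164 ± 0.137 CPM in tumours and 0.818 ± 0.300 CPM in adjacent lung (SD, n = 3 each) and did not pass (adjusted p = 0.160, edgeR).

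**Figure D3:**
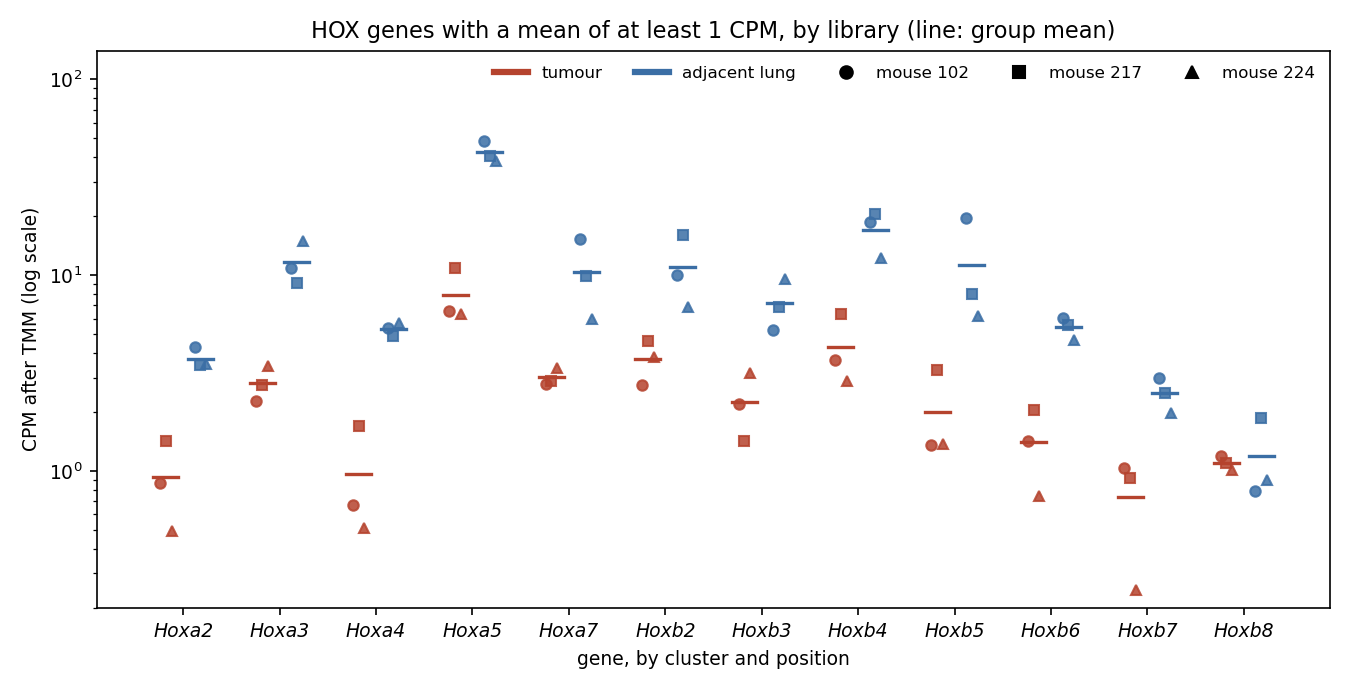
CPM after TMM (vertical axis, log scale) of the 12 HOX genes with a mean of at least 1 CPM in a lung group (horizontal axis), in tumours (left of each pair) and adjacent lung (right); symbols mark the mouse and lines the group mean. In 11 of the 12 genes all tumours lie below all adjacent libraries, against 18.9% of all genes tested. Hoxb8 is the exception, at 1.01 to 1.19 CPM in tumours and 0.789 to 1.87 CPM in adjacent lung. Hoxa2, Hoxa4 and Hoxb7 reached a mean of 1 CPM in adjacent lung only, so the choice of genes favours lower tumours.

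At positions 9 to 13, the genes of the trunk end, limbs and genital region, counts were few and scattered. Hoxd9 was the only tested one, with 23, 0 and 0 counts in tumours, against 28, 28 and 43 counts in adjacent lung (adjusted p = 0.535, edgeR). Hoxa9 had 15 counts and Hoxa10 had 4 counts, all in the adjacent library of mouse 217. Hoxb9 had 8 counts in tumour 102 and 4 in the adjacent lung of mouse 217. Hoxc9 with 13 counts and Hoxc13 with 5 counts were seen only in tumour 217, and Hoxd10 with 4 counts only in tumour 102. The other 9 members of this range had 0 counts in all 6 lung libraries. Below position 9, Hoxc5, Hoxc6 and Hoxd3 had a few counts and Hoxb1, Hoxc8 and Hoxd1 had none.

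Levels were compared between genes only per length, as CPM per kb of merged exon. Hoxa5 was the highest member in both tissues, at 4.23 ± 1.38 CPM per kb in tumours and 22.6 ± 2.86 in adjacent lung (SD, n = 3 each), and its 3 libraries lay above all 3 of the next gene, Hoxb4, in either tissue (1.67 ± 0.699 CPM per kb in tumours and 6.65 ± 1.68 in adjacent lung). Below Hoxb4, neighbours in the order overlapped in tumours down to Hoxa6, and in adjacent lung down to Hoxb7. Hoxa5 took 22.6% to 27.1% of all HOX CPM in the tumours and 30.4% to 33.1% in the adjacent libraries. The Hoxa cluster took 50.2% ± 1.55 of HOX CPM in tumours and 56.5% ± 4.20 in adjacent lung, and the Hoxb cluster 48.5% ± 0.979 in tumours and 41.6% ± 4.81 in adjacent lung (SD, n = 3 each). By position, the tumour mean was 18.5% of the adjacent mean at position 5, 22.6% at position 4, 26.9% at position 3, 31.6% at position 2, 28.5% at position 6, 29.1% at position 7 and 62.9% at position 8.

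Sorted AT2 cells held almost no HOX RNA. The 3 knockout libraries had 11 HOX counts in all and the 3 wild-type libraries 5, out of 15943084 to 18913242 counts a library. Summed over the 39 members, that is 0.351, 0.0549 and 0.241 CPM in knockout cells (175, 179 and 191), against 0.235, 0.0573 and 0 CPM in wild-type cells (176, 177 and 190). The groups overlapped. In knockout cells the counts fell on Hoxb3 (4), Hoxa5 (3, all in mouse 175), Hoxb2 (2) and Hoxb4 (2), and in wild-type cells on Hoxa3 (3, all in mouse 176), Hoxb4 (1) and Hoxb5 (1). The other 33 members had 0 counts in all 6 libraries, which over the 3 libraries of a group allows up to 0.0578 CPM in either genotype (a floor of 3 counts, for counting error only). No member passed the filter on low counts, so none was tested, and a difference between genotypes was not detectable at this depth. Over all 14053 genes tested in this table, 0% passed in edgeR in either direction, with 347 genes at an unadjusted p under 0.05 and 1 gene passing in DESeq2.

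The AT2 libraries carried the markers of their label. Fibroblast and endothelial markers were scarce in them, but club, ciliated and AT1 markers were not. Club and ciliated markers summed to 4427 to 4813 CPM in knockout and 3972 to 5178 CPM in wild-type cells. AT1 markers summed to 1512 to 1600 CPM in knockout and 1512 to 1953 CPM in wild-type cells. The 10 AT2 markers summed to 145809 to 148799 CPM in knockout and 146881 to 183956 CPM in wild-type cells, while fibroblast markers summed to 126 to 173 CPM in knockout and 98.3 to 135 CPM in wild-type cells, nearly all of it Npnt, and endothelial markers to 10.5 to 16.4 CPM in knockout and 11.5 to 12.6 CPM in wild-type cells. The fibroblast markers Lum, Pdgfra and Fbln1 were at 0 in all 3 knockout libraries and Lum, Pdgfrb and Wnt2 in all 3 wild-type ones. The tables were normalised apart, so levels in lung and in AT2 cells are set side by side without a test: the HOX sum was 32.1 CPM in tumours, 133 CPM in adjacent lung, 0.216 CPM in knockout and 0.0975 CPM in wild-type AT2 cells. The AT2 marker sum was 75116, 228098 and 94941 CPM in tumours 102, 217 and 224, above the 21991 to 43115 CPM of adjacent lung. Of the 10 markers 2 passed as higher, where 2.86% of all genes tested did. This number was 0 to 3 without each single library in turn, where 137 to 461 of all genes were higher. It was 0 to 6 over the other alternatives, with 6 reached with the mouse as a block.

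Marker lists of cell types other than AT2 cells and leukocytes summed lower in every tumour than in the adjacent lung of its mouse. The counts of lower markers come from the edgeR fit, where 7.18% of all genes tested were lower. Summed fibroblast markers measured 618 to 1281 CPM in tumours and 2604 to 3994 CPM in adjacent lung, with 3 of 14 lower and none higher. Smooth muscle markers measured 82.0 to 276 CPM in tumours and 299 to 1164 CPM in adjacent lung (3 of 8 lower). Endothelial markers measured 889 to 934 CPM in tumours and 3505 to 5108 CPM in adjacent lung (10 of 13 lower). Mesothelial markers measured 153 to 212 CPM in tumours and 233 to 397 CPM in adjacent lung (3 of 7 lower). AT1 markers (3 of 8 lower) and club and ciliated markers (6 of 9 lower) also summed lower in every tumour than in the adjacent lung of its mouse. No marker of any cell type list was at 0 in all 3 tumours. Leukocyte markers (2 of 16 lower) measured 1079 to 2325 CPM in tumours and 963 to 9299 CPM in adjacent lung, where mouse 102 was the low one. Without each single library in turn, 1 to 7 fibroblast, 3 to 9 endothelial, 0 to 3 smooth muscle and 0 to 4 mesothelial markers were lower. In those fits 461 to 1393 of all genes were lower, against 1436 in the full fit. With the mouse as a block 7 fibroblast and 4 leukocyte markers were lower, where 9.34% of all genes were. The part of these cell types in the lower HOX levels was not tested.

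**Figure D4:**
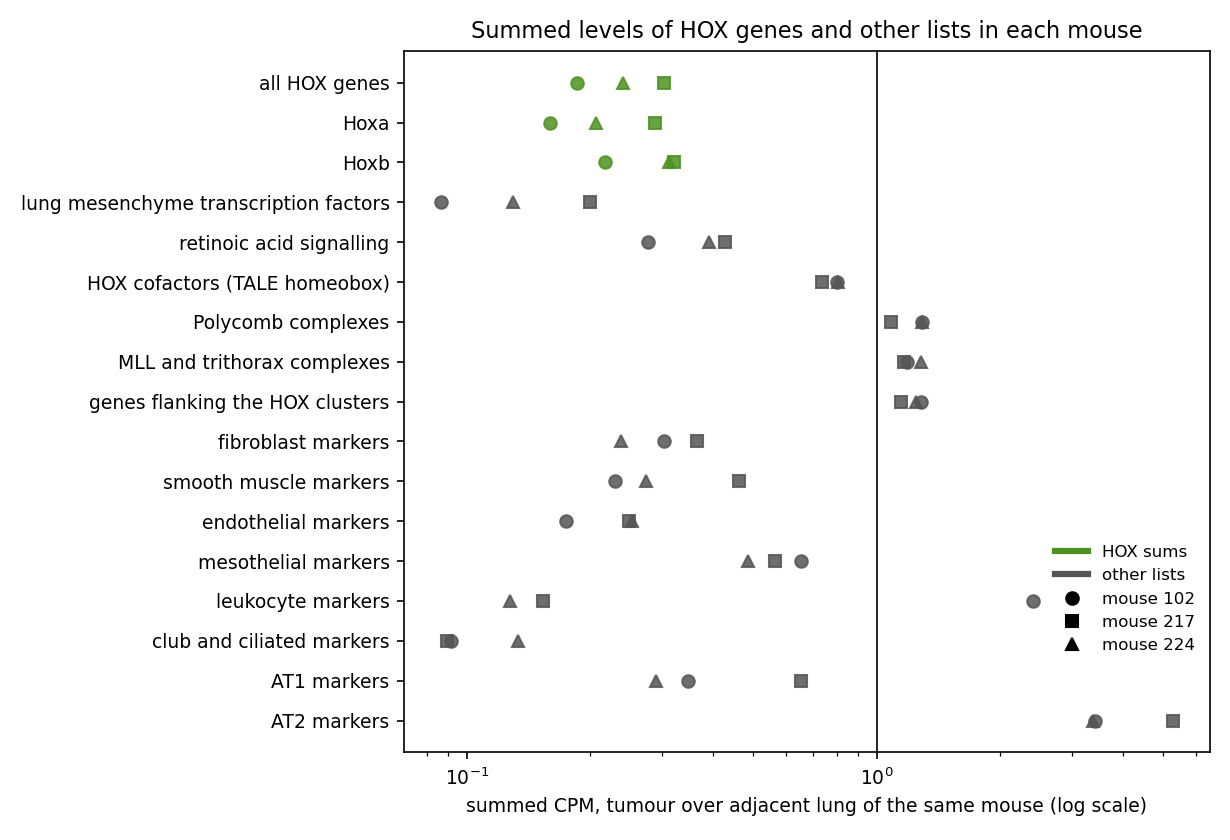
Summed CPM in tumour over that in adjacent lung of the same mouse (horizontal axis, log scale; the line marks 1) for all HOX genes, for the Hoxa and Hoxb clusters and for the companion lists (vertical axis), with 1 symbol for each of the 3 mice. Ratios lie between 0.185 and 0.304 for all HOX genes, 0.159 and 0.288 for Hoxa, and 0.217 and 0.321 for Hoxb. They run from 0.175 to 0.254 for endothelial, 0.237 to 0.366 for fibroblast and 0.230 to 0.462 for smooth muscle markers. The ranges are 0.486 to 0.655 for mesothelial, 0.290 to 0.656 for AT1, and 0.0894 to 0.133 for club and ciliated markers. Leukocyte markers spread from 0.127 to 2.41, and AT2 markers lie between 3.36 and 5.29.

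Per mouse, the tumour held 0.185 (mouse 102), 0.304 (mouse 217) and 0.240 (mouse 224) of the HOX sum of its own adjacent lung. The transcription factors of lung mesenchyme, a list of T-box, FOXF, GLI and related genes, stood at 0.0865, 0.1997 and 0.129 in the same mice. Of its 14 members 10 were lower in tumours with none higher, where 7.18% of all genes tested were lower. Without each single library in turn 3 to 10 were lower, where 461 to 1393 of all genes were. Foxf1, a factor of lung mesenchyme and vessels, measured 17.6, 23.0 and 19.6 CPM in tumours, against 397.4, 228.7 and 206.9 CPM in adjacent lung (log2 fold change -3.79 ± 0.39, adjusted p = 0.00592, edgeR). Tbx3 (log2 fold change -4.16 ± 0.49), Tbx2 (-2.65 ± 0.34) and the hedgehog effector Gli1 (-2.50 ± 0.41) were also lower. In AT2 cells, Foxf1 had 0 to 2 counts a library except for 12 in wild-type 190.

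The cofactors of HOX proteins moved in part. Of 9 tested PBX, MEIS and PKNOX genes, 4 were lower in tumours and none higher, where 7.18% of all genes tested were lower. Meis1 measured 2.47, 4.54 and 1.63 CPM in tumours, against 18.7, 7.71 and 15.8 CPM in adjacent lung (log2 fold change -2.29 ± 0.55, adjusted p = 0.0398, edgeR). Meis2 measured 5.84, 5.76 and 6.49 CPM in tumours, against 22.3, 20.6 and 10.9 CPM in adjacent lung (log2 fold change -1.57 ± 0.39, adjusted p = 0.0432, edgeR). Pknox2 (log2 fold change -2.87 ± 0.60) and Pbx3 (-1.50 ± 0.36) were the other two. All 4 had every tumour below every adjacent library, as had 18.9% of all genes tested. They were picked for passing in these same libraries, so this adds no support. Without each single library in turn 0 to 2 of the 9 passed as lower, where 461 to 1393 of all genes did. With the mouse as a block Meis1 was lost (adjusted p = 0.0663, edgeR) and Meis3 passed as higher (log2 fold change 1.15, adjusted p = 0.0260, edgeR). In AT2 cells Meis1 had 0 to 2 counts a library, while Pbx3 measured 34.9 to 35.3 CPM in knockout and 33.2 to 43.7 CPM in wild-type cells, so cofactor RNA was present there with hardly any HOX RNA.

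Of 18 genes of retinoic acid signalling, 15 were tested, and 2 were lower in tumours with none higher. Over all genes tested 7.18% were lower. Aldh1a1, an enzyme that makes retinoic acid, measured 36.2, 56.2 and 26.7 CPM in tumours, against 1179, 445.8 and 479.2 CPM in adjacent lung (log2 fold change -4.14 ± 0.56, adjusted p = 0.00898, edgeR). Cyp26b1, which breaks it down, measured 3.34, 4.12 and 2.10 CPM in tumours, against 40.1, 17.4 and 23.6 CPM in adjacent lung (log2 fold change -3.09 ± 0.47, adjusted p = 0.0114, edgeR). The median log2 fold change of the 15 was -0.89. Both genes passed without each single library in turn, and with the mouse as a block the receptor Rara also passed as lower (log2 fold change -0.91, adjusted p = 0.0408). The 6 genes Cdx1, Cdx2, Cdx4, Gsx1, Gsx2 and Pdx1, relatives of the HOX genes outside the clusters, had 0 counts in tumours and 13 in adjacent lung, and none was tested.

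No regulator of HOX chromatin passed in the edgeR fit with TMM and no block. Of 23 Polycomb genes none passed in either direction, and the 2 of smallest p, Pcgf2 (log2 fold change 1.61 ± 0.42, adjusted p = 0.0503, edgeR) and Phc2 (0.81 ± 0.32, adjusted p = 0.174, edgeR), were fitted as higher in tumours. Pcgf2 passed as higher with the mouse as a block (log2 fold change 1.71, adjusted p = 0.0198), with DESeq2's size factors, in DESeq2 and in limma-voom, and in 0 of the 6 fits that leave out a library; its adjusted p ran between 0.00382 and 0.136 over the alternatives. Of 16 MLL and trithorax genes none passed, with Ash2l (adjusted p = 0.331) and Mllt1 (adjusted p = 0.413) at the smallest p in edgeR. At an unadjusted p under 0.05 (edgeR) there were 2 of 23 Polycomb and 0 of 16 MLL genes, against 4791 of all 19995 genes tested. The median log2 fold change was 0.34 for Polycomb and 0.24 for MLL genes, against 0.04 for all genes.

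Within the clusters and the 5000 bases beyond each of their ends lie 47 non-coding genes and 3 other protein-coding genes. Of these, 10 and 1 were tested and none passed. At an unadjusted p under 0.05 (edgeR) there were 4 of the 10, against 4791 of all 19995 genes tested. The antisense transcript Hotairm1, in the Hoxa cluster, measured 0.938, 4.27 and 0.364 CPM in tumours, against 6.73, 7.61 and 3.41 CPM in adjacent lung, with overlap between groups (adjusted p = 0.312, edgeR). Hoxaas2 measured 0.171, 0.923 and 0.321 CPM in tumours, against 1.67, 1.35 and 2.78 CPM in adjacent lung. Hoxaas3 measured 0.696, 0.255 and 0.175 CPM in tumours, against 1.34, 1.86 and 0.905 CPM in adjacent lung, with every tumour below every adjacent library in both. Gm27477 measured 0.213, 0.557 and 0.175 CPM in tumours, against 1.24, 1.36 and 0.971 CPM in adjacent lung, also without overlap. All tumours lay below all adjacent libraries in 18.9% of all genes tested. Hoxaas2, Hoxaas3 and Gm27477 reached a mean of 1 CPM in adjacent lung only, so their choice favours lower tumours. In Hoxb3os and Gm11539 the groups overlapped. The microRNA genes of the mir-10 and mir-196 families in the clusters had 2 counts in all, which polyadenylated RNA libraries of this kind are not built to measure. The protein-coding 5730596B20Rik, whose exons overlap those of Hoxa3 on the other strand, measured 0.242, 0.223 and 0.466 CPM in tumours, against 1.44, 1.10 and 2.38 CPM in adjacent lung (adjusted p = 0.0704, edgeR, and 0.0484 with the mouse as a block).

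The genes next to the clusters had fold changes in both directions. Of the 2 nearest protein-coding genes on each side of each cluster, 16 in all, 14 were tested, and their median log2 fold change was -0.02. Hibadh, an enzyme of valine breakdown beyond the high-numbered end of Hoxa, was higher in tumours (178.6, 190.2 and 174.0 CPM, against 69.7, 93.1 and 61.2 CPM in adjacent lung, log2 fold change 1.278 ± 0.29, adjusted p = 0.0341, edgeR). Below the high-numbered end of Hoxb, Ttll6, a tubulin glutamylase of cilia, was lower in tumours (0.0568, 0.350 and 0 CPM, against 9.13, 4.76 and 13.9 CPM in adjacent lung, adjusted p = 0.0283, edgeR). Next to it Calcoco2 had 0 counts in tumours, at least 50.1-fold lower than in adjacent lung against a floor of 3 counts over the group (adjusted p = 0.0229, edgeR). That floor covers counting error only. For neither gene were all 3 tumours past the level of the filter on low counts, so their direction is in part fixed by the filter. With the mouse as a block Ttll6 (adjusted p = 0.0507) and Calcoco2 (0.0631) were lost and Skap1 (0.0195) was gained as lower. Hibadh passed in 0, Calcoco2 in 1 and Ttll6 in 2 of the 6 fits that leave out a library. Skap1 also passed with library totals alone, in DESeq2 and without tumour 217, and its adjusted p ran between 0.00169 and 0.184 over the alternatives. The 11 genes that did not pass in the edgeR fit with TMM and no block include Skap1, and their log2 fold changes ran between -2.73 (Skap1) and 0.60 (Hnrnpa3).

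Lung libraries held 65163100 to 77951014 counts, and mitochondrial genes took 2.05% to 3.89% of them except for 6.44% in tumour 217. Med23 itself measured 25.9, 18.3 and 36.8 CPM in tumours and 29.8, 21.005 and 31.5 CPM in adjacent lung, tissues in which the labels place the deletion in T cells alone. Tumour 217 stood farthest from the other tumours in its counts (chi-square per degree of freedom of 1164 and 867, against 376 between the other two), and the HOX fits were repeated without both libraries of that mouse. Hoxa5 still passed (log2 fold change -2.82, adjusted p = 0.0261, edgeR), and it passed without each single library in turn. Hoxa3, Hoxa4, Hoxb4 and Hoxb5 passed without tumour 217, and none of the 4 did without any other single library or without both libraries of mouse 217, with fewer samples in each such fit. With the mouse as a block Hoxb5 was lost (adjusted p = 0.0590), Hoxb3 (0.0437) and Hoxb6 (0.0387) were gained, and 6 members were lower, where 9.34% of all genes were. DESeq2 called 12 members lower, where it called 12.9% of all genes.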

How the data were processed

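Per the labels' protocols, libraries came from poly-T captured RNA and a NEBNext Ultra kit. The authors deposited 2 tables of raw counts per Ensembl gene, one for lung and one for AT2 libraries. FastQC, Trimmomatic 0.39, HISAT2, StringTie 1.3.3b, DESeq2 1.28.1 and GRCm38 (mm10) are named in the submitters' processing notes; the counting step, strand setting included, is not given in the sources used here. Identifiers were matched to GENCODE M21, which left 1035 lung identifiers (0.0388% of counts) and 37 AT2 identifiers (0.00383%) without a symbol.

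Each table was fitted on its own in R 4.3.3 with edgeR 4.0.16 (filterByExpr, TMM, quasi-likelihood test, Benjamini-Hochberg adjustment over all genes tested, threshold 0.05). Standard errors are the log2 fold change divided by the root of F. Other normalisations, no filter, DESeq2 1.42.0, limma 3.58.1 (voom), the mouse as a block and left-out libraries were tried. Tumour and adjacent lung came from the same mice, so the numbers pair the samples, and deviations from the group means correlated across genes (r = 0.358, 0.544 and 0.459 in mice 102, 217 and 224). No 2 libraries of a group agreed within sampling noise. Values of every library are given for members that passed or had a group mean of at least 1 CPM, and of each companion list for up to 4 members that passed, or the 2 of smallest p where none did; Hoxd4, Hoxa6 and the counts of scarce members were added after their values were seen. Members and lists were chosen with earlier results of these data known. Intervals and floors cover counting error only. With 3 libraries a group, the p-values set a difference against the spread between these samples. Without the block the fit treats the lung libraries as independent, although both lung groups come from the same 3 mice. A single member, included in all counts and sums, is not reported by itself here.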

Additional observations from a re-analysis of the deposited data

How the results depend on the processing

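The number of HOX genes lower in tumours was 5 as reported (1436 over all genes), 3 with DESeq2's size factors (1383), 3 with no filter on low counts (1153 of 30825 tested), 9 with library totals alone (1840), 7 with limma-voom (1629), 12 with DESeq2 (2584) and 6 with the mouse as a replicate block (1867). Library totals moved the median log2 fold change of all genes to -0.18. Leaving out each library in turn gave 1 to 6, with 6 without tumour 217 and 1 in the 5 other fits, and leaving out both libraries of mouse 217 gave 1; each such fit has fewer samples, and genes lower in tumours then numbered 461 to 1393 over all genes. Hoxa5 passed under all 13 alternatives (log2 fold change -2.82 to -2.28), Hoxa3 and Hoxb4 under 7, Hoxa4 under 5 and Hoxb5 under 4. The log2 fold change of Hoxb8 turned positive with limma-voom (0.000701), without adjacent replicate 217 (0.38, in a range of -0.33 to 0.38 over the left-out libraries) and without both libraries of mouse 217 (0.31), never passing; the cause was not tested. With library totals the HOX sum was 29.2 CPM in tumours and 144 CPM in adjacent lung. In AT2 cells members were tested only with no filter on low counts, where 6 were tested and none was called. The other alternatives tested no member and so could call none, and 3 counts over a group limit what could be seen there. No block was possible for the AT2 cells, since the genotypes share no mouse number.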
